A study of Mus musculus with 2 samples.

Results

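The neutrophils described here were 1386 cells, chosen by their transcripts from the 8451 CD45+ lung cells that passed the filters. There were 945 neutrophils among 4526 cells of the BLM library and 441 among 3925 cells of the naive library. A cell was taken when S100a8 and S100a9, the calprotectin subunits that fill the neutrophil cytosol, made up 0.5% or more of its unique molecular identifiers (UMIs, 1 per captured transcript) and when Retnlg, Csf3r, Cxcr2, Mmp9 and Hdc together gave 2 or more UMIs. Cells with fewer than 200 genes, or with mitochondrial UMIs above 15%, were left out first.

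Lung leukocytes of C57BL/6N mice, sorted as living CD45+ cells, were read as single-cell whole transcriptomes with BD Rhapsody, a microwell method. The BLM library came from lungs collected on day 15 after intratracheal bleomycin (BLM), which damages the epithelium and is followed by fibrosis. The naive library came from mice with no treatment. Each library was a pool of 3 mice with no map from cell to mouse, so there was 1 library per group and no test between groups could be run. Library and treatment, with anything else that differed between the libraries, cannot be told apart. Every interval below is a 95% interval that covers counting error only.

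Neutrophils are short-lived granulocytes that leave the bone marrow after storing antimicrobial proteins in primary, secondary and gelatinase granules. They enter injured tissue along gradients of CXCR2 ligands, and once there they release chemokines, IL-1 family cytokines, proteases and reactive oxygen. In the lung they are a standing population of the capillary bed as well as infiltrating cells, and their transcriptome is small, so each cell yields few UMIs.

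Neutrophils made up 20.9% of the BLM cells (Clopper-Pearson interval 19.7% to 22.1%) and 11.2% of the naive cells (10.3% to 12.3%). The share therefore stood higher in the BLM library than in the naive one under the same selection. Equal sorting of CD45+ cells says nothing of the number of neutrophils per lung. The share rests on the thresholds, since 108 BLM and 49 naive members lay just inside with an S100 share of 0.5% to under 1%, while 57 BLM and 24 naive cells with 2 or more marker UMIs lay just outside at 0.25% to under 0.5%. With the S100 share met, 3 BLM cells and 0 naive cells had only 1 marker UMI, and 20 and 1 members had 2 or 3.

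The median neutrophil had 1357 UMIs and 642 genes in BLM and 1606 UMIs and 767 genes in naive, against 1792.5 and 2013 UMIs in B cells. Mitochondrial UMIs were at a median of 0.626% and 0.785% in neutrophils and near 9.78% and 9.41% in B cells. The 945 BLM neutrophils summed to 1457612 UMIs and the 441 naive neutrophils to 774816. The libraries shared 22 cell indexes, and 0 of them marked a neutrophil in both.

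The genes that chose the cells are given as a description. Levels are counts per 1000000 UMIs (CPM) of the summed neutrophils of a library, and log2 ratios are BLM over naive. S100a8 stood at 11985 CPM in BLM and 12305 CPM in naive, and S100a9 at 15077 and 15571 CPM. Retnlg, which encodes a resistin-like secreted protein, had a log2 ratio of 0.49. Csf3r, the receptor for G-CSF, had a log2 ratio of -0.42 and Cxcr2, the receptor for neutrophil-attracting chemokines, one of -0.39. Mmp9, the gelatinase, was at -0.14 and Hdc, which makes histamine, at 0.07.

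Defining markers of other cells were checked beside these. Of the members, 37 in BLM and 19 in naive (3.92% and 4.31%) carried 2 or more UMIs of another lineage's markers, and those cells had medians of 3471 and 4104 UMIs. B cell markers met that count in 12 BLM and 11 naive members and C1q macrophage genes in 12 and 3. The stromal markers met it in none of either library. Of the 7 basophil and mast cell markers, 5 were at 0 UMIs in BLM and 5 in naive, and the 4 erythroid genes were at 0 in both. The eosinophil granule genes Epx and Prg2 were at 0 UMIs in BLM and 1 UMI each in naive. The 9 B cell markers summed to 391 CPM in BLM neutrophils and 1057 CPM in naive neutrophils, against 25865 and 30877 CPM in B cells, and the 10 C1q macrophage markers to 1328 and 503 CPM. Spp1, counted among those 10 markers, gave 579 and 29.7 CPM of the last sums. The part of these cells and transcripts in the ratios below was not tested gene by gene.

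Of 3418 genes tested in neutrophils, 66 were higher in BLM by 2-fold or more (1.93%) and 157 were lower (4.59%). Tested genes had at least 30 UMIs over both libraries and were seen in at least 5% of neutrophils of the library where they were higher; with 1 library per group, tested means compared and no p-value is implied. The median log2 ratio over the tested genes was -0.10. With ratios centred on that median 80 genes were 2-fold higher and 111 lower. Without the 37 and 19 cells that carried markers of another lineage, 63 genes were 2-fold higher and 158 lower. Among the higher genes were chemokines, IL-1 alpha, TNF and survival genes of the BCL2A1 family, and among the lower genes were interferon-stimulated genes with Fos and Egr1. In droplet and microwell data free RNA also enters cells, so B cells of the same library served as the background. Of the 66 higher genes 25, and of the 157 lower genes 47, had a B cell level of at most 25% of the neutrophil level. Of all 3418 tested genes 609 met this limit. The remaining genes of both counts were not clear of that background.

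**Figure D1:**
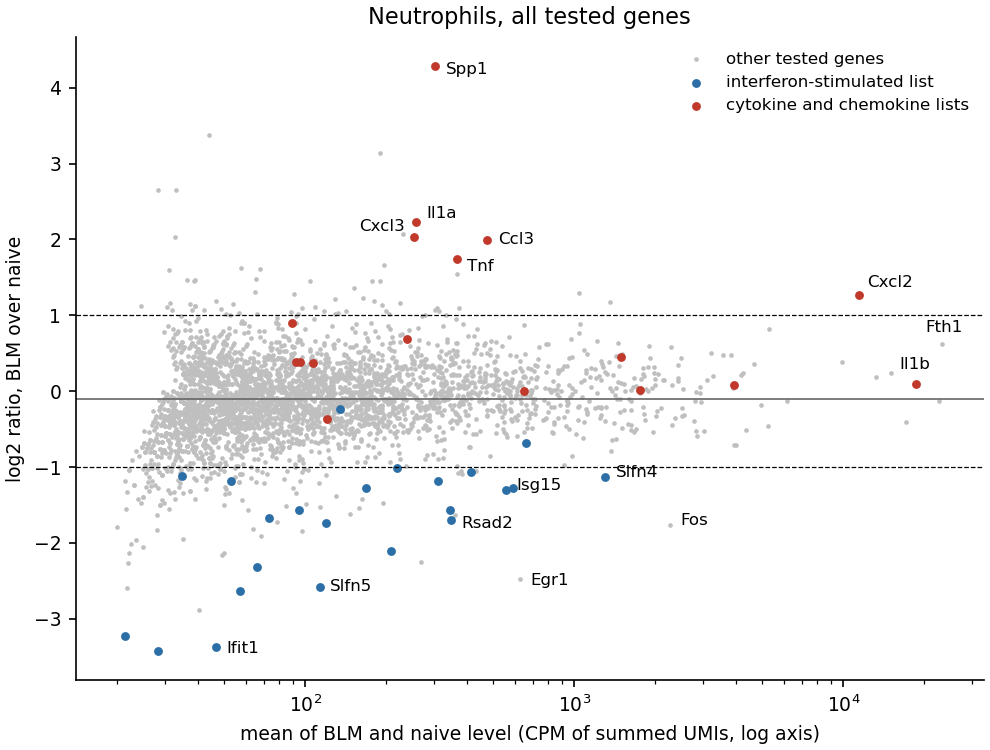
Log2 ratio of BLM over naive neutrophils (vertical) against the mean level of the libraries in CPM (horizontal, log axis) for the 3418 tested genes, each point a gene. Red points are tested cytokine and chemokine genes, blue points interferon-stimulated genes, dashed lines mark 2-fold and the grey line the median of -0.10; Cxcl2 is the abundant gene above 2-fold and all blue points lie below 0.

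Chemokine genes were the list that stood highest in BLM neutrophils. Of the 6 tested members of 16, 3 passed 2-fold upward and 0 downward, beside 1.93% and 4.59% of all tested genes. Their median log2 ratio was 1.08. The summed level of the 16 genes was 21893 CPM in BLM and 11305 CPM in naive. In B cells the same genes summed to 1266 and 1044 CPM.

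Cxcl2, which encodes a ligand of CXCR2 and so attracts further neutrophils, carried most of that level. It stood at 16085 CPM in BLM (interval 15880 to 16292) and 6702 CPM in naive (6521 to 6887), a log2 ratio of 1.26 (1.22 to 1.31). A Cxcl2 UMI was seen in 96.5% of BLM and 81.4% of naive neutrophils. After each cell was thinned to 500 UMIs those shares were 92.0% and 70.2%, and they were 6.50% and 2.56% in B cells. The gene was therefore seen in more cells and at a higher level in the BLM library.

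Cxcl3, its neighbour on chromosome 5 and also a CXCR2 ligand, was at 406 CPM in BLM and 99.4 CPM in naive (log2 ratio 2.03, interval 1.69 to 2.39). Ccl3, a ligand of CCR1, was at 758 and 191 CPM (1.99, 1.74 to 2.25). Both ratios were larger than that of Cxcl2 at a far lower level. Ccl4, which lies 13229 bases from Ccl3 on chromosome 11, had a ratio of 0.90 (0.43 to 1.40) from 116 and 62.0 CPM. Ccl6, an abundant myeloid chemokine, stood at 4048 and 3810 CPM with a ratio of 0.09. Cxcl1, at 34.3 and 46.5 CPM and in 1.48% and 0.907% of cells, was too rare to be tested.

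The promoters of Cxcl2 and Cxcl3 are shown because the genes stood high together and each holds the kB letters, the pattern bound by NF-kB proteins. Both are the 250 bases before the RefSeq start on GRCm38.p6, written 5′ to 3′ along the gene, with capitals for 2 overlapping matches on either strand.
Cxcl2, chr5:90903649-90903898, strand +: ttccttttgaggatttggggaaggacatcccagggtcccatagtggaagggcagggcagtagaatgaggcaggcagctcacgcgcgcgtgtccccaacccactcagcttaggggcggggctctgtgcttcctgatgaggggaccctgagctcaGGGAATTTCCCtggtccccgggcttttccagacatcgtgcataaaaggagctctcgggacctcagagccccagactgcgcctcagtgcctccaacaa
Cxcl3, chr5:90785851-90786100, strand +: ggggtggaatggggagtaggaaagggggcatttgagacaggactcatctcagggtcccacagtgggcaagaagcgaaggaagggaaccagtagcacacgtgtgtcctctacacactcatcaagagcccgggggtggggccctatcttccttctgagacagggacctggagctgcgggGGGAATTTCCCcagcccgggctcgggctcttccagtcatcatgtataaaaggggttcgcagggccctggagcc
The capitals lie 97 to 87 bases before the start in Cxcl2 and 73 to 63 bases before it in Cxcl3. The kB letters were found in 4.51% of the 32851 promoters of the table (300 bases each, 50 of them after the start). By gene they were in 7.01% of 2724 tested genes with a promoter there, in 8 of 54 genes 2-fold higher in BLM (14.8%) and in 8 of 123 genes 2-fold lower (6.50%). The AP-1 letters TGANTCA, also searched, were in the same number of the higher genes, 8 of 54 (14.8%), beside 6.94% of the tested genes. They were in 11 of 123 lower genes (8.94%) and in 8 of 19 tested interferon-stimulated genes (42.1%), so they were not particular to the higher genes. No kB match was present in the table's windows of Ccl3, Tnf or Il1a, which says only that the letters are not within those windows.

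The cytokine list was split. Of 21 genes 11 were tested, and the median log2 ratio was 0.38. The list summed to 25671 CPM in BLM and 22541 CPM in naive neutrophils, and to 1378 and 477 CPM in B cells. Of the 11, 3 passed 2-fold upward and 0 downward, beside 1.93% and 4.59% of all tested genes. The genes past 2-fold were Il1a, Tnf and Spp1, and they differ in how far neutrophils carried them.

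Il1a, the alarmin form of interleukin-1 that acts without processing by the inflammasome, was at 423 CPM in BLM (391 to 458) and 90.3 CPM in naive (70.4 to 114). That is a 4.69-fold difference (log2 ratio 2.23, interval 1.87 to 2.61). A UMI of Il1a was seen in 21.5% of BLM and 8.39% of naive neutrophils, and in 12.2% and 3.54% after thinning. B cells had it at 33.1 and 9.54 CPM.

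Il1b, whose precursor needs caspase-1, was the most abundant cytokine gene and differed little. It stood at 19251 CPM in BLM and 18020 CPM in naive, a log2 ratio of 0.10 (0.07 to 0.12), and was seen in 99.6% and 99.8% of cells. The neighbouring Il1a and Il1b, 54598 bases apart on chromosome 2, therefore had unlike ratios. Il1rn, the receptor antagonist that blocks both, was at 1725 and 1260 CPM (0.45, 0.35 to 0.56), and Il1r2, the decoy receptor, at 5230 and 4099 CPM (0.35, 0.29 to 0.41).

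Tnf, the archetypal inflammatory cytokine, was at 563 CPM in BLM and 168 CPM in naive (log2 ratio 1.75, interval 1.48 to 2.03). It was seen in 331 of the BLM and 74 of the naive neutrophils. Osm, an IL-6 family cytokine, was at 1760 and 1749 CPM with a ratio of 0.01, and Vegfa, the vascular growth factor, at 650 and 648 CPM with a ratio of 0.00. These abundant cytokine genes thus sat near equality while Tnf did not. Csf1, the macrophage growth factor, was at 296 and 183 CPM (0.69, 0.41 to 0.97).

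Spp1, which encodes osteopontin, had the largest ratio of all tested genes but was not spread over the neutrophils. It was at 579 CPM in BLM and 29.7 CPM in naive (log2 ratio 4.29, interval 3.69 to 4.95). Of its BLM UMIs 77.4% lay in the 37 cells with markers of another lineage, and 78.8% lay in the 10 cells richest in it. B cells of the BLM library had it at 410 CPM. Fn1, fibronectin, behaved alike, with a ratio of 3.13 and 72.1% of its BLM UMIs in the same 37 cells. By contrast those cells held 7.62% of the Il1a UMIs, 7.60% of the Ccl3 UMIs and 2.36% of the Cxcl3 UMIs.

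Tff1, the trefoil factor gene of interest in the lung Tregs of this model, had 1 UMI in all BLM neutrophils and 0 in naive. Il33 had 0 and 1. Tgfb1 was at 18.5 and 15.5 CPM, below its level in B cells (27.2 and 34.7 CPM).

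**Figure D2:**
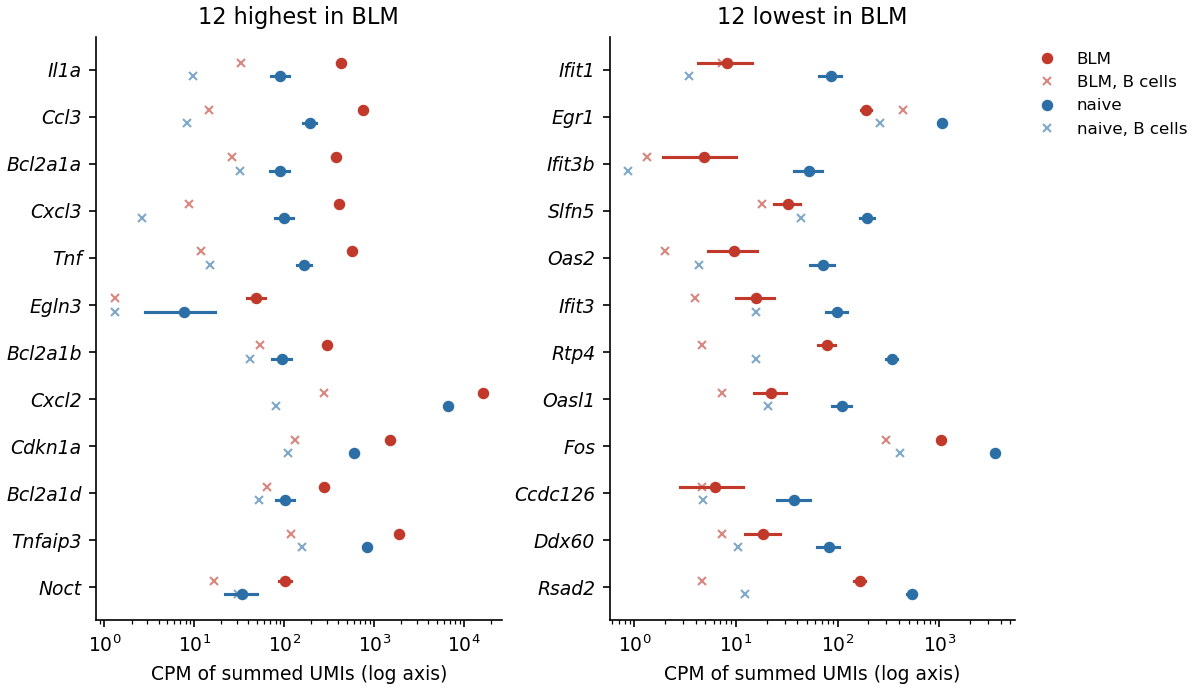
Levels in CPM (horizontal, log axis) of the 12 highest and 12 lowest tested genes in BLM (red) and naive (blue) neutrophils, with exact Poisson intervals as bars. Crosses give B cells of the same library. For Egr1 the BLM cross lies to the right of the BLM neutrophil point.

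Survival and NF-kB feedback genes were a further group with a median above that of all tested genes. Of 26 tested members of 27, 7 passed 2-fold upward and 0 downward, beside 1.93% and 4.59% of all tested genes. The median log2 ratio was 0.49. Their summed level was 39211 CPM against 30551 CPM in naive neutrophils.

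The BCL2A1 genes, which encode an anti-apoptotic relative of BCL2 that prolongs neutrophil life, led this group. Bcl2a1a was at 373 and 89.1 CPM (log2 ratio 2.07, interval 1.70 to 2.45), Bcl2a1b at 298 and 94.2 CPM (1.66, 1.30 to 2.04) and Bcl2a1d at 278 and 102 CPM (1.45, 1.10 to 1.81). All lie on chromosome 9 as near-identical copies, so counting may have moved reads between them and their order is uncertain. Mcl1, the other survival protein of neutrophils, was at 3952 and 3829 CPM with a ratio of 0.05 (-0.02 to 0.11).

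Of the NF-kB regulators Tnfaip3, Nfkbia and Nfkbiz, only Tnfaip3 passed 2-fold. Tnfaip3, which encodes the ubiquitin-editing protein A20, was at 1886 CPM in BLM and 836 CPM in naive (log2 ratio 1.17, 1.05 to 1.30). Nfkbia, the inhibitor of NF-kB, was at 6782 and 3837 CPM (0.82, 0.76 to 0.88), and Nfkbiz at 4161 and 2989 CPM (0.48, 0.41 to 0.55). Nfkb1 and Rel, subunits of the factor itself, had ratios of 1.03 and 1.10, with B cell levels of 231 and 516 CPM beside 177 and 420 CPM in BLM neutrophils. Relb was at -0.14 (-0.52 to 0.25), so the subunits did not share 1 ratio. Ptgs2, the inducible prostaglandin synthase, went the other way at 2495 and 3592 CPM (-0.53, -0.60 to -0.45).

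Other genes of the 12 highest were Cdkn1a, the cell cycle inhibitor p21, at 1482 and 604 CPM (1.29, 1.15 to 1.44), Noct, a circadian nocturnin gene (1.61), and Egln3, a prolyl hydroxylase that marks hypoxia-inducible factors for decay. Egln3 was at 48.7 CPM in BLM and 7.74 CPM in naive (2.65, 1.46 to 4.15), from only 71 and 6 UMIs, and its ratio ran from 1.53 with an S100 share of 2% or more to 4.51 without the richest 1% of cells. The B cell limit left out 7 genes of equal rank, Spp1, Fn1, Gm19951, Ptgs1, Hilpda, Clec4n and Uck2.

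Hypoxia and glycolysis genes had a median near that of all genes, with a few members far above it. Of 24 tested members of 32, 3 passed 2-fold upward, beside 1.93% of all tested genes, and 0 downward, and the median log2 ratio was -0.04, close to -0.10 over all tested genes. The 3 were Egln3, Hilpda and Bhlhe40, a pair of hypoxia-induced genes and a transcription factor. Hilpda, a lipid droplet protein, was at 543 and 187 CPM (1.54). The glycolytic enzymes Gapdh, Aldoa, Pgk1 and Pkm had ratios of 0.00, -0.11, -0.13 and -0.35, and Slc2a1, the glucose transporter, one of 0.62 (0.24 to 1.01).

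**Figure D3:**
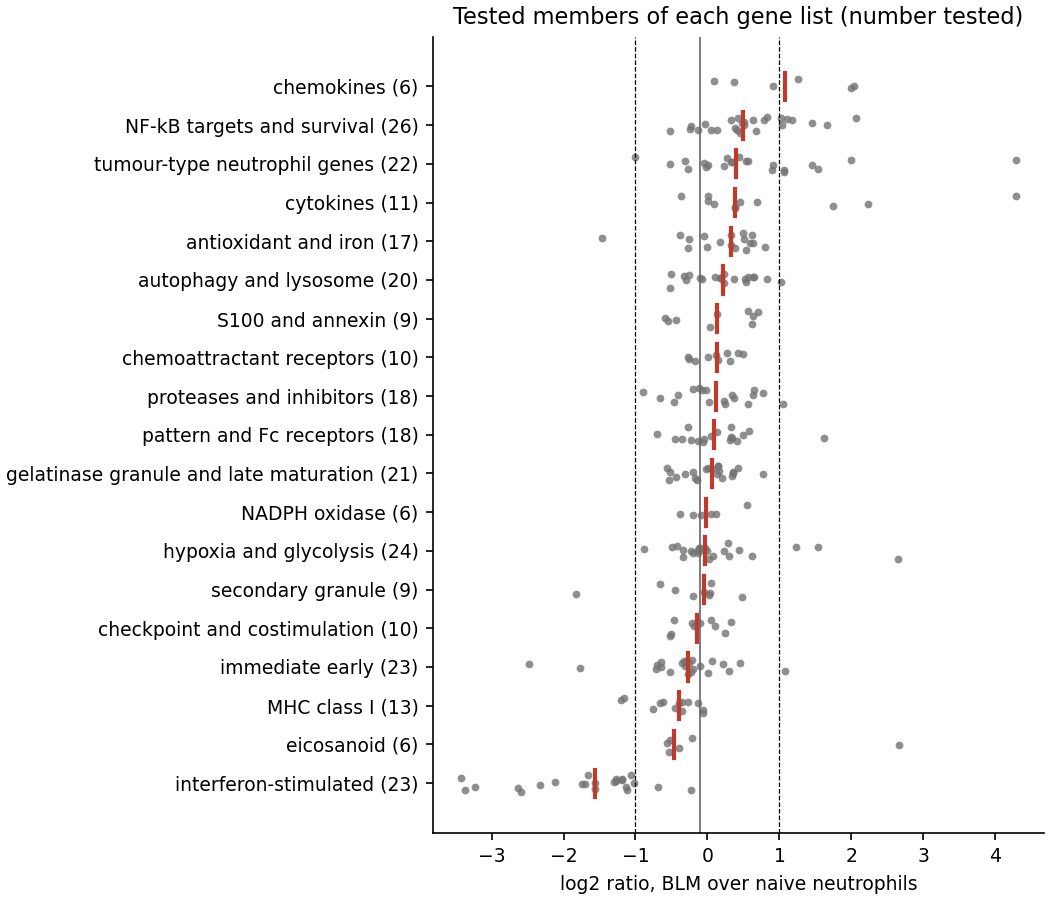
Log2 ratio of BLM over naive neutrophils (horizontal) for the tested members of 19 gene lists, each point a gene and each red bar the list's median, with the number tested in brackets. The grey line is the median of all tested genes at -0.10 and the dashed lines mark 2-fold; the interferon-stimulated list lies apart at -1.56 and the chemokines at 1.08.

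Interferon-stimulated genes were the list that stood lowest in BLM neutrophils. Of 23 tested members of 34, 21 passed 2-fold downward and 0 upward, beside 4.59% of all tested genes downward, and every tested member had a ratio below 0. The median log2 ratio was -1.56 and the summed level 3605 CPM in BLM against 8691 CPM in naive. In B cells the same genes summed to 668 and 1157 CPM, also lower in the BLM library.

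Ifit1, which binds foreign RNA, was at 8.23 CPM in BLM (4.25 to 14.4) and 85.2 CPM in naive (65.9 to 108), a log2 ratio of -3.37 (-4.39 to -2.47). Rsad2, the antiviral enzyme viperin, was at 165 and 533 CPM (-1.69, -1.93 to -1.46). The most abundant member, Slfn4, a schlafen gene of myeloid cells, was at 816 and 1788 CPM (-1.13, -1.24 to -1.02).

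Isg15, a ubiquitin-like modifier, was at 323 CPM in BLM and 794 CPM in naive (-1.30, -1.47 to -1.12) and was seen in 26.2% and 50.8% of neutrophils. In B cells it was seen in 2.20% and 3.74%. Oasl1 and Oas2, of the oligoadenylate synthetase family, had ratios of -2.32 and -2.89, Ifit3 one of -2.64 and Slfn5 one of -2.59. Ifit3 and Ifit3b (-3.43) are near-identical copies 19239 bases apart, so the split of reads between them is uncertain. Ifit2 had 0 UMIs in BLM and 20 in naive, at least 12.5-fold lower in BLM when a floor of 3 counts is set for the library.

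Irf7, the factor that amplifies type I interferon, was at 48.0 and 142 CPM (-1.56, -2.02 to -1.12). Stat2, which carries the receptor's signal, had a ratio of -1.12, and Irf1 one of -1.02. The member nearest 0 was Isg20, an exonuclease, at 124 and 146 CPM (-0.23, -0.58 to 0.12), while Ifitm1, which restricts viral entry, had -0.68 (-0.84 to -0.53). MHC class I genes, many of which interferon also induces, had a median of -0.39 over 13 tested members. Of these 2 passed 2-fold downward, H2-Q7 and Psmb9, beside 4.59% of all tested genes, and 0 passed upward.

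The promoters of 4 members are shown because these genes stood low together and carry the interferon letters GAAANNGAAA on either strand, in capitals. This pattern was added after the values were seen. Each sequence is the 250 bases before the RefSeq start on GRCm38.p6, 5′ to 3′ along the gene.
Ifit1, chr19:34640639-34640888, strand +: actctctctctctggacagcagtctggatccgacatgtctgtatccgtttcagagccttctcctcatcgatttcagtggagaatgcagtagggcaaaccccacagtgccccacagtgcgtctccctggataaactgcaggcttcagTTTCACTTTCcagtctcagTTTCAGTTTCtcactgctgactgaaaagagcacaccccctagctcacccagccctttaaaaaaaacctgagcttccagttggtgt
Ifit3, chr19:34583279-34583528, strand +: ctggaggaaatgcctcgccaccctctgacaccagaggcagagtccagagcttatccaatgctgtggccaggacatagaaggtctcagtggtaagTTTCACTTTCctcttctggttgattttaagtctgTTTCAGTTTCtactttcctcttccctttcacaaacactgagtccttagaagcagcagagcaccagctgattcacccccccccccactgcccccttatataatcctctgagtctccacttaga
Isg15, chr4:156200819-156201068, strand -: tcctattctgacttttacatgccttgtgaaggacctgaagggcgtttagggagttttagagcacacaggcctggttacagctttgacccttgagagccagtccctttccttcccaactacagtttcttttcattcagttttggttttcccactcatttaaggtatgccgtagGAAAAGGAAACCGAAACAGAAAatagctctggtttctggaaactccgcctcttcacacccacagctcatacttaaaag
Rsad2, chr12:26456453-26456702, strand -: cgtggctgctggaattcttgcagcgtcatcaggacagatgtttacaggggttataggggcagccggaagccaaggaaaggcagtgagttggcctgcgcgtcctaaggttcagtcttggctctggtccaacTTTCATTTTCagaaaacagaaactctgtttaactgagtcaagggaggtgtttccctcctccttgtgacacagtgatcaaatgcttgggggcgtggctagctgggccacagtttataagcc
There were 2 matches in Ifit1, 2 in Ifit3, 3 that overlap in Isg15 and 1 in Rsad2, the last between 120 and 111 bases before the start. The letters were in 3.44% of all promoters of the table and, by gene, in 4.88% of the tested genes. They were in 11 of 19 tested interferon-stimulated genes with a promoter there (57.9%). Of the 2-fold lower genes outside that list they were in 9 of 106 (8.49%), and of the 2-fold higher genes in 3 of 54 (5.56%).

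Immediate early genes, which are transcribed within minutes of a stimulus, were uneven. Of 23 tested members of 27, 1 passed 2-fold upward and 2 downward, beside 1.93% and 4.59% of all tested genes. The median log2 ratio was -0.27. Of the 23, 14 had intervals wholly below 0 and 4 wholly above it, and the summed list had a ratio of -0.42. Fos, a partner of Jun in the AP-1 factor, was at 1033 CPM in BLM and 3513 CPM in naive (-1.77, -1.86 to -1.67) and was seen in 56.3% and 94.6% of cells. Egr1, a growth response zinc finger factor, was at 191 and 1062 CPM (-2.48, -2.68 to -2.28).

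Egr1 also ran against B cells, where it was at 434 CPM in BLM and 260 CPM in naive. Other Fos and Jun family members differed less. Fosb was at 1476 and 1758 CPM (-0.25), Fosl2 at 1690 and 1621 CPM (0.06), Jun at 200 and 241 CPM (-0.27) and Junb at 1789 and 2248 CPM (-0.33). Nr4a3, an orphan nuclear receptor, was the member past 2-fold upward at 412 and 196 CPM (1.07, 0.81 to 1.34). Zfp36 and Dusp1, which destabilise cytokine mRNA and dephosphorylate MAP kinases, were both at -0.71, from 3025 and 4953 CPM and from 2980 and 4863 CPM.

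**Figure D4:**
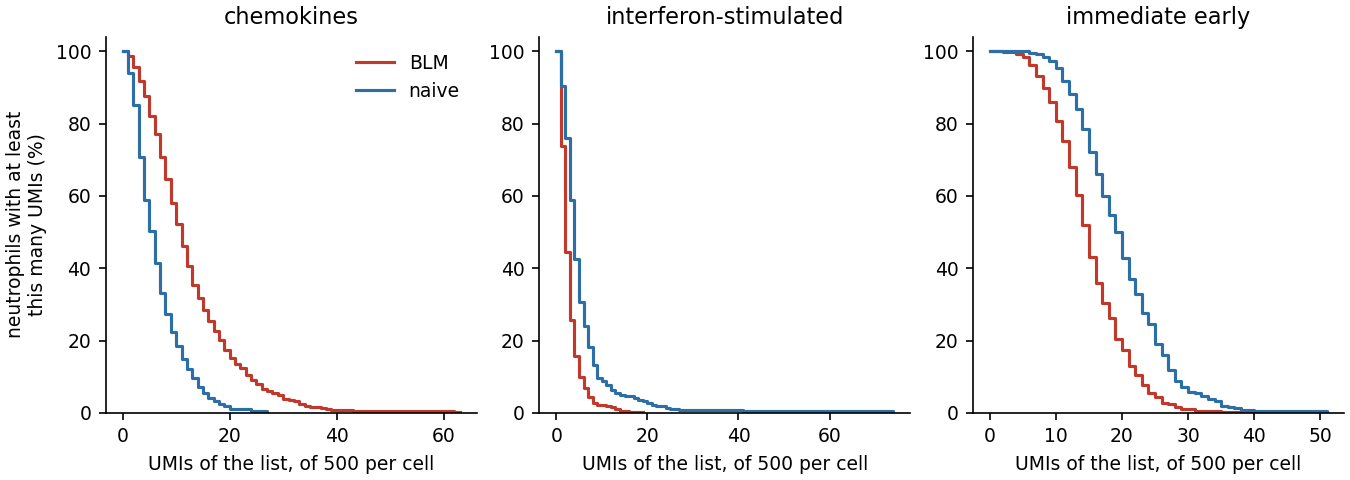
Share of neutrophils (vertical, %) that hold at least a given number of UMIs of a list (horizontal) after each cell was thinned to 500 UMIs, for BLM (red, 938 cells) and naive (blue, 441 cells). The BLM line lies to the right for chemokines and to the left for interferon-stimulated and immediate early genes.

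Per cell, the distributions were shifted. After thinning, the median BLM neutrophil held 10 chemokine UMIs of 500 and the median naive neutrophil 5, with 90th percentiles of 23 and 12. For immediate early genes the medians were 14 and 19 UMIs. For interferon-stimulated genes they were 1 and 3, and the naive library also had a tail, since 8.84% of its cells (39 cells, interval 6.36% to 11.9%) held 10 or more UMIs of the list against 1.92% in BLM (18 cells, 1.14% to 3.02%). The richest 10% of cells held 38.5% of the list's UMIs in BLM and 38.2% in naive, compared with 25.9% and 27.8% for chemokines. The highest single cell held 74 of 500 in naive and 19 of 500 in BLM. Thinning left out 7 BLM cells and 0 naive cells.

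Chemokine and interferon-stimulated UMIs showed little relation from cell to cell at the thinned depth. The median thinned cell held only 1 interferon-stimulated UMI in BLM and 3 in naive. Values near 0 therefore cannot show that a relation is absent. Spearman's rho over thinned cells, given as a description of cells that share a library, was -0.02 between chemokine and interferon-stimulated UMIs in BLM and -0.03 in naive. Between cytokines and NF-kB genes it was 0.22 and 0.36.

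Primary granule genes, which are transcribed in marrow precursors, were almost absent: Mpo, Ctsg and Ms4a3 had 0 UMIs in both libraries, and the 6 genes of the list found in the tables summed to 4.12 CPM in BLM and 3.87 CPM in naive. Secondary granule genes had 9 tested members of 14, with a median of -0.05. Of these 0 passed 2-fold upward and 1 downward, beside 1.93% and 4.59% of all tested genes. Lcn2, which binds siderophores, was at 627 and 649 CPM, Mmp8, the neutrophil collagenase, at 508 and 805 CPM (-0.67, -0.82 to -0.51) and Ly6g, the surface antigen used to gate mouse neutrophils, at 28.1 and 99.4 CPM (-1.82, -2.40 to -1.26).

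Ngp, Camp and Ltf, granule genes of the marrow stages, were held by very few cells. In BLM they gave 585 UMIs, and 527 of these lay in 4 cells with 10 or more each. With 2 or more UMIs of the 3 genes there were 15 BLM cells (1.59%, interval 0.891% to 2.60%) and 2 naive cells (0.454%, 0.0550% to 1.63%), intervals that overlap, and 0% of B cells. The BLM levels of Ngp (253 against 11.6 CPM), Camp (75.5 against 2.58 CPM) and Ltf (72.7 against 19.4 CPM) therefore rest mostly on 4 cells. Without the richest 1% of cells the log2 ratio was 1.18 for Ngp and 0.37 for Ltf. A few of the 15 cells held many macrophage transcripts, and 2 of the 15 carried markers of another lineage. The 15 cells held 562 UMIs of Spp1 against 282 in all other BLM neutrophils. Spp1 was seen in 26.7% of the 15 and in 16.9% of the others. For Lpl, a lipase of alveolar macrophages, they held 88 UMIs against 297, seen in 13.3% and 12.5% of cells. Cells with markers of another lineage held 34.1% of the BLM UMIs of Ngp, 40% of Camp and 35.8% of Ltf. This split was chosen after the values were seen. The wider split by 2 or more UMIs over the whole secondary granule list took 79.2% of BLM and 89.3% of naive neutrophils but also 54.7% and 63.4% of B cells, so it does not separate granule-rich cells. On both of its sides interferon-stimulated genes were lower in BLM (medians of -1.37 and -0.96) and chemokines higher (0.97 and 1.67).

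All 21 members of the gelatinase and maturation list were tested, and the median was 0.06. Of these 0 passed 2-fold in either direction, beside 1.93% upward and 4.59% downward of all tested genes. Cxcr4, the marrow homing receptor that marks aged cells, was at 1328 and 1195 CPM (0.15, 0.04 to 0.27). The 18 cell cycle genes summed to 1624 and 1945 CPM, of which Hmgb2, a chromatin protein, gave 1206 and 1612 CPM. Mki67, the proliferation antigen, was seen in 2.12% and 2.04% of cells, below its level in B cells.

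Receptor genes were counted beside all tested genes, of which 1.93% passed 2-fold upward and 4.59% downward. Lists of this size cannot be set apart from those shares. Of 10 tested chemoattractant receptors 0 passed 2-fold in either direction, with a median of 0.13. Ptafr, the receptor for platelet-activating factor, had a ratio of 0.49, Ccr1, which binds CCL3, one of 0.31 and C5ar1, the C5a receptor, one of 0.12. Of 18 tested pattern and Fc receptors 1 passed upward, Fcgr2b (1.62), whose B cell level of 202 CPM exceeded its 87.1 CPM in BLM neutrophils. Cd14, the LPS co-receptor, was at 3773 and 2669 CPM (0.50, 0.43 to 0.57) and Fcgr4, an activating IgG receptor, at 159 and 259 CPM (-0.70). The 6 NADPH oxidase genes had a median of -0.02, with Ncf1 highest at 0.55.

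Of the proteases and inhibitors 18 were tested. Of these 1 passed 2-fold upward and 0 downward, beside 1.93% and 4.59% of all tested genes. It was Stfa2l1, a stefin of the neutrophil cysteine protease inhibitors, at 423 and 204 CPM (1.05, 0.80 to 1.32). Slpi, the inhibitor of neutrophil elastase, was at 2809 and 2837 CPM. Among antioxidant and iron genes Fth1, the ferritin heavy chain, was the most abundant tested gene at 28293 and 18429 CPM (0.62, 0.59 to 0.65). Slc40a1, the iron exporter ferroportin, was at 103 and 285 CPM (-1.47, -1.78 to -1.17). It was the only tested member of 17 past 2-fold, beside 1.93% upward and 4.59% downward of all tested genes. Summed over the neutrophils of each library, Fth1 therefore stood higher and the exporter gene lower in BLM.

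Genes reported for tumour-associated and aged tissue neutrophils had 22 tested members of 25, with a median of 0.39. Of these genes 6 passed 2-fold upward and 1 downward, beside 1.93% and 4.59% of all tested genes. Siglecf, the sialic acid lectin of eosinophils and of such neutrophils, is also part of the paper's gate for alveolar macrophages. It was at 51.5 CPM in BLM (40.5 to 64.5) and 24.5 CPM in naive (14.8 to 38.3). The log2 ratio was 1.07 (0.33 to 1.88), and a UMI was seen in 6.56% and 4.08% of cells. Over the alternatives the ratio ran from 0.79 to 1.17, and it was 0.87 without cells with markers of another lineage. Olr1, a lectin-like scavenger receptor, was at 269 and 129 CPM (1.06, 0.74 to 1.39). Plin2, a lipid droplet coat protein, went downward at -1.01. The remaining members past 2-fold were Ccl3, Hilpda, Clec4n and Spp1. Other lists here also hold Ccl3, Hilpda and Spp1. Hilpda, Clec4n and Spp1 had B cell levels over 25% of the neutrophil level.

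Of 10 tested checkpoint and costimulation genes, 0 passed 2-fold in either direction, beside 1.93% upward and 4.59% downward of all tested genes. Cd274, which encodes PD-L1, was at 351 and 279 CPM (0.33, 0.10 to 0.57), and Cd80 at 216 and 183 CPM with an interval that holds 0 (0.24, -0.05 to 0.53). Cd86 had 62 and 29 UMIs and was below the limit for testing. Genes of MHC class II stood at 1450 and 2021 CPM in sum, against 18491 and 19190 CPM in B cells.

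Classical monocytes of the same libraries (110 BLM and 155 naive cells, chosen by Ly6c2 and Ccr2 with other monocyte genes) were set beside the neutrophils. In them 2.97% of 5155 tested genes were 2-fold higher in BLM and 4.73% lower. Interferon-stimulated genes were lower there as well, with 15 of 26 tested members past 2-fold downward, 1 upward and a median of -1.10. Chemokines had a median of 0.59 and cytokines of 1.05 in monocytes. In B cells, the background, the medians of the interferon-stimulated, chemokine and cytokine lists were -0.92, 0.59 and 1.19. The monocyte medians of chemokines and cytokines were thus not clear of that background. The part of free RNA in the monocyte ratios was not tested. Il1b had a ratio of 1.02 in monocytes against 0.10 in neutrophils and Il1rn 2.10 against 0.45, while Egr1 had 0.15 against -2.48. With 1 library per group the difference between cell types was not tested, and both rest on the same pair of libraries.

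**Figure D5:**
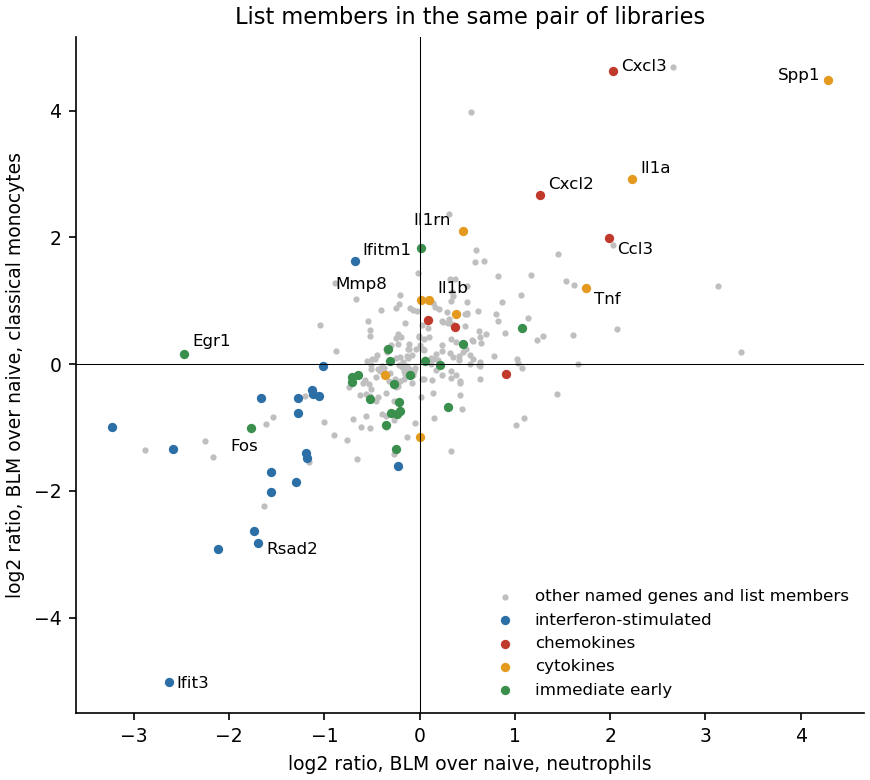
Log2 ratio of BLM over naive in classical monocytes (vertical) against that in neutrophils (horizontal) for named genes and list members tested in neutrophils and with 30 or more UMIs in monocytes. Interferon-stimulated genes (blue) lie mostly at lower left, Il1a, Cxcl2, Cxcl3, Ccl3 and Tnf at upper right, and Egr1 at the left near 0 on the monocyte axis.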

How the data were processed

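Living CD45+ lung cells of 1 BLM and 1 naive library were analysed. Per the file headers, the authors deposited raw UMI counts per cell from the BD WTA Rhapsody Analysis Pipeline version 1.8 (GRCm38, GENCODE vM19), with no normalisation. A gene absent from a table was counted as 0. The cell selection, the gene lists and the sets compared were chosen with earlier results of these data known. UMIs of the selected cells were summed per library and given as CPM with exact Poisson intervals. Log2 ratios carry exact conditional intervals, and shares Clopper-Pearson intervals. With 1 library per group there was no test, no p-value and no replicate check, and called means a log2 ratio of 1 or more in size.

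Background was read from B cells (3 or more UMIs of Cd79a, Cd79b and Ms4a1, no CD3 gene, outside the neutrophil selection). Named genes were the 12 highest and 12 lowest tested genes by the interval end nearer 0, leaving out the genes of the selection and those with a B cell level over 25% of the neutrophil level. To these were added the 4 most abundant members and the 4 of largest ratio in each of 34 lists, and a fixed set of cytokine, receptor and granule genes. Other genes were named after their values were seen: Ctsg, Ms4a3, Fosb, Fosl2, Junb, Cxcl1, Nfkb1, Relb, Rel, Slc2a1, Aldoa, Pgk1, Plin2, Olr1, Ifit2, Isg20, Irf1, Irf7, Stat2, Mki67, Epx and Prg2. The interferon letters, the split by Ngp, Camp and Ltf, the B cell limit on counts and the loss of the richest cells were also chosen after seeing the data. Values of a few genes are not reported here. Thinning drew 500 UMIs per cell, and shares after thinning are exact means. No doublets were removed in the values given. Scrublet's own threshold marked 8 BLM and 61 naive cells (0.177% and 1.55%), and leaving out the highest 3% of scores was tried separately. Other alternatives changed the selection, the filters, the scaling, the depth and the weight of cells. Positions are from GENCODE vM21 and promoters from the RefSeq table, both on GRCm38. The CRE, AP-1, hypoxia element, CArG box and kB patterns had been listed for the search, and the kB and interferon matches are shown. The comparison code was tested on simulated counts. Python 3.11.15, numpy 2.4.6, scipy 1.17.1, pandas 2.3.3, scanpy 1.11.5 and matplotlib 3.10.9 were used.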

Additional observations from a re-analysis of the deposited data

Results flagged for a closer look

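In 5 of the named genes reported here the ratios in neutrophils and in classical monocytes lay on opposite sides of 0, each past 0.5 in size with intervals that left 0 out, and the difference between the cell types was not tested. Mmp8, the collagenase, had a log2 ratio of -0.67 in neutrophils and 1.03 in monocytes. Ifitm1, an interferon-induced membrane protein, had -0.68 and 1.62, and Wfdc17, a secreted protease inhibitor of myeloid cells, -0.89 and 1.27. Pirb, an inhibitory MHC class I receptor, had -0.52 and 0.54. Mrc1, the macrophage mannose receptor, had -1.04 and 0.62, from 63 BLM and 69 naive UMIs in neutrophils. Of the 63, 25 lay in only 6.67% of the 15 BLM cells with 2 or more UMIs over Ngp, Camp and Ltf. Mrc1 is also among the alveolar macrophage markers used here, so any member with 2 or more of its UMIs counted as carrying markers of another lineage. The part of such cells in its neutrophil ratio was not tested.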

How the results depend on the processing

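Over 15 alternatives 111 of 126 main values did not move, and of 560 values of 47 named genes 511 stayed within the interval. These tallies include values that could not move. With 100 or more genes per cell, and with at most 10% mitochondrial UMIs, the same 945 BLM and 441 naive neutrophils were kept. Their ratios, list medians and gene counts were thus the main ones. No value that was 2-fold or more changed sign, but some near 0 did. Centred on the median of tested genes, the medians were 0.05 for secondary granule and 0.06 for hypoxia and glycolysis genes, and the ratios were 0.06 for S100a8, 0.06 for S100a9 and 0.05 for Lcn2. S100a8 and S100a9 were at 0.02 and 0.01 with an S100 share of 2% or more, Lcn2 was at 0.00 without cells with markers of another lineage, and Cd86 was at -0.04 without the richest 1% of cells. Ratios that rest on few UMIs also moved, with Ifit3 from -4.75 to -1.84 and Oas2 from -4.82 to -2.73. An S100 share of 2% or more gave neutrophil shares of 13.2% in BLM and 7.41% in naive, at most 10% mitochondrial UMIs gave 23.5% and 12.9%, and 500 genes per cell gave 19.6% in BLM. The counts of genes 2-fold higher and lower were 142 and 289 with each cell thinned to 500 UMIs, and 3561 and 2445 of 14524 genes with no filter on low counts. The following alternatives were chosen after seeing the data: leaving out genes with a B cell level over 25% gave 25 and 47 of 609 genes, and leaving out the richest 1% of cells of each gene gave 264 lower. The secondary granule median was -0.25 without cells with markers of another lineage, -0.23 from the mean of per-cell CPM and -0.32 without the richest 1% of cells. The cause of these shifts was not tested. Shallow cells limit genes below the filter. No paired analysis was possible because each group has 1 library.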
